A study of Mus musculus with 8 samples.

Results

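*Ttyh1*, a tweety family gene, was described together with 7 markers of Schwann cells and related glia (*Sox10*, *Ngfr*, *Cdh19*, *S100b*, *Gfap*, *Fabp7* and *Mbp*) in mouse islets that lack integrin β1 in their endocrine cells. These 8 genes were taken by symbol from the 24091 genes of the deposited count table, and all 8 were among the 15233 genes with enough counts to be tested. *Ttyh1* was picked because it differed between the genotypes in these same libraries, so its difference is given as a description with no test. The other 7 genes were picked as known glial markers, also with earlier results of these data known. Their p-values are therefore no independent test of the list.

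The study asked how loss of *Itgb1*, which encodes the integrin β1 subunit and so a receptor for extracellular matrix, alters islet development and function. Islets were released from the pancreas with collagenase P, and RNA was sequenced from 4 control and 4 mutant libraries. Controls were labelled wild-type and mutants Ngn3-Cre, itgb1-/-, both on a C57BL/6 background and, from the study's text, 6 weeks of age. Ngn3-Cre acts in endocrine progenitors, so Schwann cells, fibroblasts and vessels of the islet keep *Itgb1* by design, and *Ngn3* is also expressed in gut and brain. The labels do not say that each library came from a separate mouse, so p-values here measure the spread between libraries, which may be technical in part.

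Schwann cells are the glia of peripheral nerves. In the islet they form a thin sheath around the endocrine cells and follow the autonomic fibres that enter it. Nonmyelinating Schwann cells, the usual type in islets, carry *Sox10*, *Ngfr*, *Cdh19*, *S100b* and *Gfap*, while *Fabp7* belongs to their precursors and *Mbp* to myelin. *Ttyh1* encodes a membrane glycoprotein best known from neural stem cells and astrocytes, and tweety proteins have been studied as anion channels. In bulk RNA, fewer cells of a type and less RNA per cell cannot be told apart.

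The libraries held 35.1 to 67.6 M counts, and they fell into 2 sets by size. Control 2, control 3 and mutant 3 held 62.2 M or more, and the other 5 libraries 41.0 M or less. Levels below are counts per M library counts (CPM) after TMM scaling, and log2 fold changes are mutant over control from edgeR's quasi-likelihood fit. For the larger libraries alone, the log2 fold change is a difference of mean log2 CPM (prior count 2), scaled within that set. It therefore need not match the ratio of mean levels. *Itgb1* averaged 394 ± 53.9 CPM in controls and 235 ± 32.5 CPM in mutants (SD, n = 4), with every mutant library below every control library. Counts cover all cells of the islets and the whole gene. Reads from cells that keep *Itgb1* and any left in recombined cells cannot be told apart. Some of these larger libraries also differed from the rest in cell markers or in sex. The summed level of 9 acinar markers was 3451 and 10744 CPM in controls 2 and 3 and 19.1 to 731 CPM elsewhere, with *Amy2a5* at 0 in every library. *Xist* was 1125 CPM in control 3, 1225 CPM in mutant 3 and at most 0.752 CPM in the other 6 libraries. No gene of the 15233 passed an adjusted p below 0.05 with a fold change above 2 in the quasi-likelihood test (0% called), against 186 in DESeq2 (1.22%) and 91 in edgeR's likelihood ratio test. The study did report genes that passed these thresholds in the same comparison. Its model corrected for batch, which the fit here does not. At an unadjusted p below 0.05 the quasi-likelihood test held 2025 genes (13.3%), 6.4% higher and 6.89% lower in mutants.

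*Ttyh1* was about 4 times as high in the mutants as in the controls. Its level was 20.2, 9.61, 12.4 and 21.3 CPM in controls 1 to 4. It was 79.9, 83.5, 39.0 and 82.3 CPM in mutants 1 to 4. Every mutant library lay above every control library, and within each genotype the larger libraries were the lowest. The means were 15.9 ± 5.77 CPM in controls and 71.2 ± 21.5 CPM in mutants (SD, n = 4), a ratio of 4.48. The log2 fold change was 2.16 (SE 0.33). Behind these levels stood 518 to 894 counts per control library and 2639 to 3534 per mutant library, and a library's exact Poisson interval (95%, counting error only) ran, for mutant 3, from 37.5 to 40.5 CPM.

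**Figure D1:**
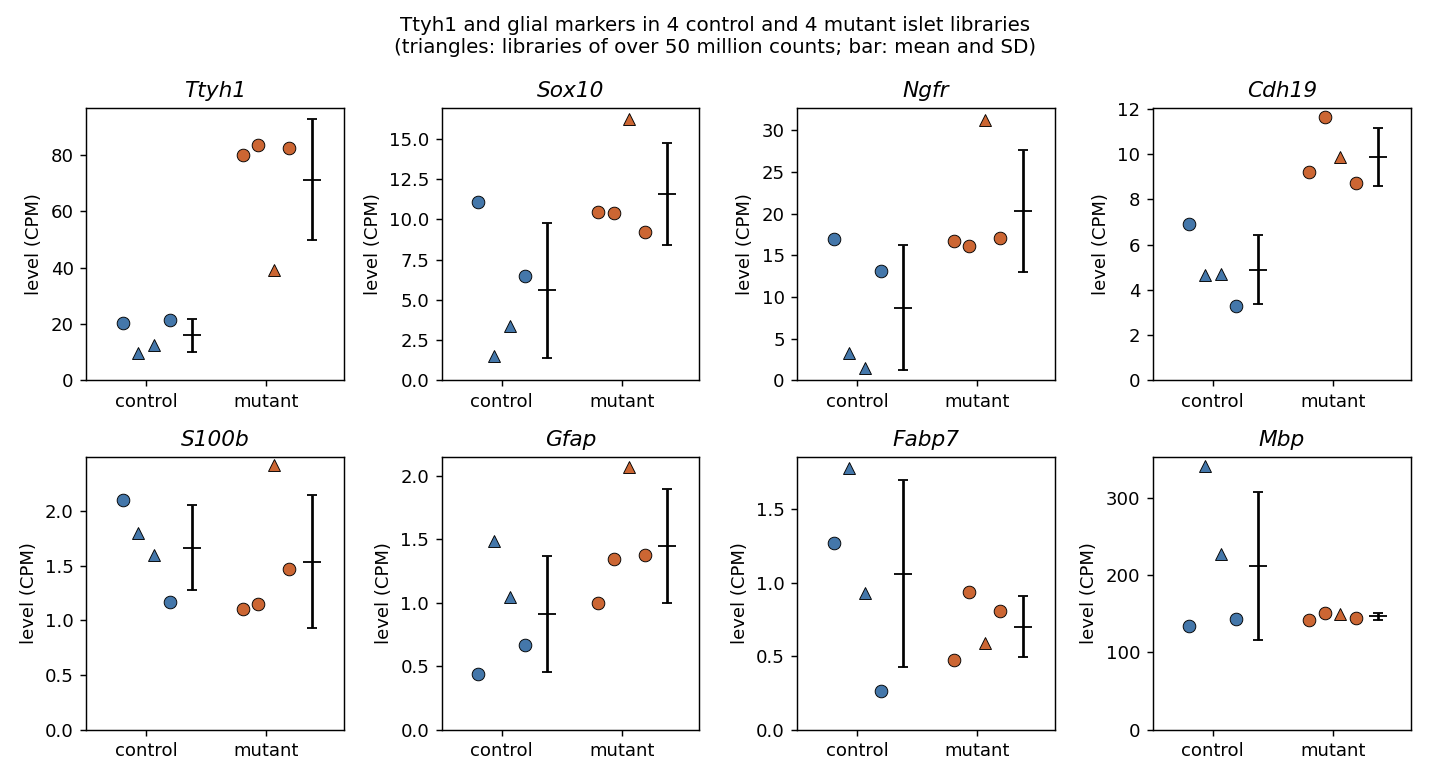
Level in CPM (linear axes from 0) of the 8 genes in each of 4 control and 4 mutant libraries, with the mean and SD of each genotype beside the points. Triangles mark the libraries of over 50 M counts. *Ttyh1* and *Cdh19* separate the genotypes, *Sox10* and *Ngfr* are lowest in the controls drawn as triangles, and *Mbp* is high in those same libraries.

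The genotype difference of *Ttyh1* was of like size in both sets of libraries. In the 5 smaller libraries the controls lay at 20.2 and 21.3 CPM and the mutants between 79.9 and 83.5 CPM, a ratio of 3.94. In the 3 larger libraries the controls lay at 9.61 and 12.4 CPM and the single mutant at 39.0 CPM, a ratio of 3.54. The larger libraries were thus lower by a similar factor in both genotypes, 1.89 times in controls and 2.10 times in mutants. With a term for library set, the log2 fold change was 1.92 (SE 0.11), and its difference between the sets was -0.16 (SE 0.20). Set, sex and acinar level move together in part of these libraries, and their part in the level of *Ttyh1* was not tested.

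*Ttyh1* lies on chromosome 7 of GRCm38 (chr7:4119530-4135407, plus strand), and its counted exons span 3.371 kb. Counting at default settings uses no strand, so reads over exon bases shared by antisense genes cannot be assigned by strand. Overlaps given here are of gene spans, and shared exon bases were not counted. The antisense genes that overlap *Ttyh1*, *9430041J12Rik* and *D030047H15Rik*, held 149 and 95 counts in all 8 libraries together, against 15962 for *Ttyh1*. Their log2 fold changes were 0.63 (SE 0.43) and 0.37 (SE 0.68). Within 250 kb, 6 of 13 listed neighbours were tested, with a median log2 fold change of 0.50 and a range from -0.08 for *Leng8* to 0.68 for *Leng9*, genes singled out after their values were seen. *Leng9* was the neighbour of these 6 whose genotypes did not overlap, at 5.33 CPM in controls and 8.56 CPM in mutants. Of all genes tested, 4.4% had every mutant library above every control library.

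The family holds 3 tweety genes, all present in islets. *Ttyh2* was 126, 116, 92.4 and 126 CPM in controls 1 to 4. It was 140, 155, 154 and 153 CPM in mutants 1 to 4. Every mutant lay above every control, as for 4.4% of all genes tested, but the step was small beside that of *Ttyh1*. Mutants exceeded controls by 0.39 on the log2 scale (SE 0.12), and edgeR's quasi-likelihood test put the adjusted p at 0.353. *Ttyh3* was 27.2, 19.0, 19.3 and 23.5 CPM in controls and 30.6, 26.1, 32.9 and 30.4 CPM in mutants, which overlapped in the values of control 1 and mutant 2. The log2 difference was 0.43, its SE 0.15 and its adjusted p again 0.353 in that test. Per length, *Ttyh2* led the family in both genotypes (33.5 CPM per kb in controls and 43.7 in mutants). *Ttyh1* and *Ttyh3* stood side by side in controls at 4.72 and 4.80 CPM per kb, whereas in mutants *Ttyh1* stood at 21.1 and *Ttyh3* at 6.46 CPM per kb.

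Set against *Ttyh2* in the same library, *Ttyh1* gave 16.0, 8.29, 13.4 and 16.9 counts per 100 *Ttyh2* counts in controls 1 to 4. The ratio was 57.1, 54.0, 25.3 and 53.8 in mutants 1 to 4. This ratio needs no scaling between libraries, and it also kept every mutant above every control, with mutant 3 the nearest to the controls.

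**Figure D2:**
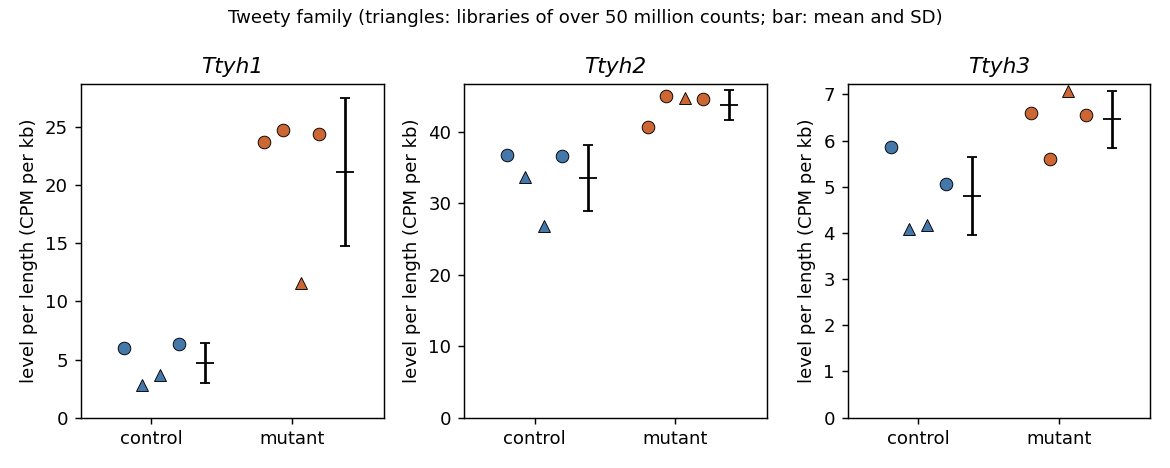
Level per length (CPM per kb, linear axes from 0) of the 3 tweety genes in each library, with mean and SD by genotype and triangles for libraries of over 50 M counts. *Ttyh1* lies near the level of *Ttyh3* in controls, at 4.72 CPM per kb, and at 21.1 CPM per kb in mutants, while *Ttyh2* is the highest of the 3 in both genotypes.

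The bases just before the start site are shown for the 3 tweety genes, whose differences between genotypes were so unequal. They come from RefSeq on GRCm38.p6, the 250 bases before the start, 5′ to 3′ along the gene, at chr7:4119280-4119529 (plus strand) for *Ttyh1*, chr11:114675218-114675467 (plus strand) for *Ttyh2* and chr5:140649032-140649281 (minus strand) for *Ttyh3*. Capitals mark the SOX core motifs ACAAAG or ACAATG on either strand, searched because *Sox10* encodes a SOX factor.
Ttyh1: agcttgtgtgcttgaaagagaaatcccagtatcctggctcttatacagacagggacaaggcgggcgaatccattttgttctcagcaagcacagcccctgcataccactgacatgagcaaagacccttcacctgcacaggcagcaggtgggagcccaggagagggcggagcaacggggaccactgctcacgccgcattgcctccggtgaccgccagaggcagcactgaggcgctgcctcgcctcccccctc
Ttyh2: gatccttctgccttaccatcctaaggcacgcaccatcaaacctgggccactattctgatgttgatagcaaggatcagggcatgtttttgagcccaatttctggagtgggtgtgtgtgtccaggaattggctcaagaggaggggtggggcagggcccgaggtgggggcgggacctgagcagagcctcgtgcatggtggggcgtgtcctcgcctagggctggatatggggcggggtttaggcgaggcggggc
Ttyh3: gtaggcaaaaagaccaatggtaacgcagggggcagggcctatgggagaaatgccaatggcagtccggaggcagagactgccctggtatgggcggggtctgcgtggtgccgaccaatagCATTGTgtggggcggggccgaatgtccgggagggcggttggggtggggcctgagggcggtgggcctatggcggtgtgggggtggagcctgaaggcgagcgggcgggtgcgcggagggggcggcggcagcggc
The windows of *Ttyh1* and *Ttyh2* held neither motif, and that of *Ttyh3* held ACAATG once on the reverse strand, 132 bases before the start. Over 27025 promoters of this length, 16.5% held ACAAAG, 11% ACAATG and 25.5% either. GC content was 60.4% in *Ttyh1*, with 10 CpG, and 69.2% in *Ttyh3*, with 19 CpG, against a median of 52% and 6 CpG over all promoters.

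The volume regulated anion channel is built from LRRC8 proteins, and its 5 genes were listed as a second family of anion channels. *Lrrc8d* was the highest per length of the 5, at 43.2 CPM per kb in controls and 42.3 in mutants. *Lrrc8a*, the obligatory subunit, passed an unadjusted p below 0.05 (log2 fold change 0.46, SE 0.20; adjusted p = 0.372, edgeR quasi-likelihood test), and the other 4 did not. Of all genes tested, 13.3% passed that threshold. None of the 5 was separated by genotype, and their median log2 fold change was 0.13.

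Among the 7 glial markers, 4 had a higher mean in mutants and 3 a lower one, with a median log2 fold change of 0.66 beside 0.0015 over all genes tested. That median was 0.14 in the 5 smaller libraries, and leaving out single libraries took it from 0.44, without control 1 or without mutant 3, to 0.81, without mutant 1. None passed an adjusted p below 0.05 in the quasi-likelihood test over all 8 libraries, and 1, *Cdh19*, passed an unadjusted p below 0.05, as 13.3% of all genes did. The count was 2 in the 5 smaller libraries, where 23.3% of all genes passed, and 2 in DESeq2, where 16.7% did. It was 4 without control 1, 3 without control 4 and 2 without control 2. Over all genes, 2781, 2754 and 1192 passed in those fits, against 2025 with all 8 libraries. Counting *Ttyh1*, 2 of the 8 genes had every mutant library above every control library, against 4.4% of all genes tested, and *Ttyh1* was chosen for its difference. None had every mutant library below every control library, against 3.8% of all genes tested.

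*Cdh19* encodes a type II cadherin that in the peripheral nervous system marks Schwann cells and their precursors. Its level was 6.93, 4.66, 4.71 and 3.27 CPM in controls 1 to 4. It was 9.22, 11.6, 9.87 and 8.73 CPM in mutants 1 to 4. Every mutant library was above every control library, and the step was alike in both library sets. The log2 fold change was 1.01 (SE 0.24; adjusted p = 0.332, edgeR quasi-likelihood test), while DESeq2 gave an adjusted p of 0.00941 and put 2.04% of all genes tested below 0.05. Over the other alternatives with a test, edgeR fits in each case, the adjusted p reached 0.643 at most. The ratio was 1.94 in the smaller libraries and 2.11 in the larger ones, and the difference between sets was 0.12 (SE 0.53; adjusted p = 0.901). The gene lies at chr1:110889195-110977372 on the minus strand.

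*Sox10* encodes the transcription factor that specifies and maintains Schwann cells. Its level was 11.1, 1.48, 3.34 and 6.46 CPM in controls 1 to 4. It was 10.5, 10.4, 16.2 and 9.20 CPM in mutants 1 to 4. The genotypes overlapped, because control 1 exceeded every mutant but mutant 3. The log2 fold change was 1.05 (SE 0.53; adjusted p = 0.408, edgeR quasi-likelihood test). It was 0.19 (SE 0.24) in the 5 smaller libraries, a ratio of 1.14, and 2.87 in the 3 larger ones, a ratio of 6.71. The gene lies at chr15:79154913-79164506 on the minus strand.

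*Ngfr*, the p75 neurotrophin receptor carried by nonmyelinating and injured Schwann cells, divided the libraries in the same way. It was 16.9, 3.21, 1.48 and 13.1 CPM in controls 1 to 4. It was 16.7, 16.0, 31.2 and 17.1 CPM in mutants 1 to 4. Control 2 and control 3 were low, mutant 3 was high, and the 5 smaller libraries lay together between 13.1 and 17.1 CPM. The log2 fold change was 1.23 (SE 0.68; adjusted p = 0.435, edgeR quasi-likelihood test). It was 0.14 (SE 0.13) in the smaller libraries and 3.85 in the larger ones. The gene lies at chr11:95568821-95587698 on the minus strand, and the 250 bases before its start (chr11:95587699-95587948, RefSeq, GRCm38.p6, minus strand) are shown because it had the widest gap between library sets.
Ngfr: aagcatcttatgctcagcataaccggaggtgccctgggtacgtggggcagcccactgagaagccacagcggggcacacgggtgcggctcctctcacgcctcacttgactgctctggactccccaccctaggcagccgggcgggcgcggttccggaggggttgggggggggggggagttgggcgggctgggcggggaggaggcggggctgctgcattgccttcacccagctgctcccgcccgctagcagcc
Neither SOX motif was in this window, which held 70.4% GC and 16 CpG. *Ngfr* gave 1.53, 2.16, 0.443 and 2.03 counts per *Sox10* count in controls 1 to 4 and 1.59, 1.54, 1.93 and 1.86 in mutants 1 to 4. Control 3 was the low library in that ratio, and the other 7 lay close together.

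The genotype difference of *Sox10* and *Ngfr* in the larger set rests on mutant 3, the single mutant there, against controls 2 and 3. The values cannot tell that library from its set, and a dependence on library set is not shown. An interaction fitted with edgeR's quasi-likelihood test after this gap was seen, which takes mutant 3 to vary like the libraries of the other groups, was 2.55 on the log2 scale for *Sox10* (SE 0.59; adjusted p = 0.0447) and 3.59 for *Ngfr* (SE 0.48; adjusted p = 0.0132). These were 2 of 7 glial markers (28.6%), and 10.9% of all genes tested passed the same threshold. *Mbp* had an interaction of -0.99 (SE 0.28; adjusted p = 0.068) and *S100b*, *Gfap*, *Fabp7* and *Cdh19* had adjusted p from 0.291 to 0.901. For *Ttyh1* the same term was -0.16 (SE 0.20).

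**Figure D3:**
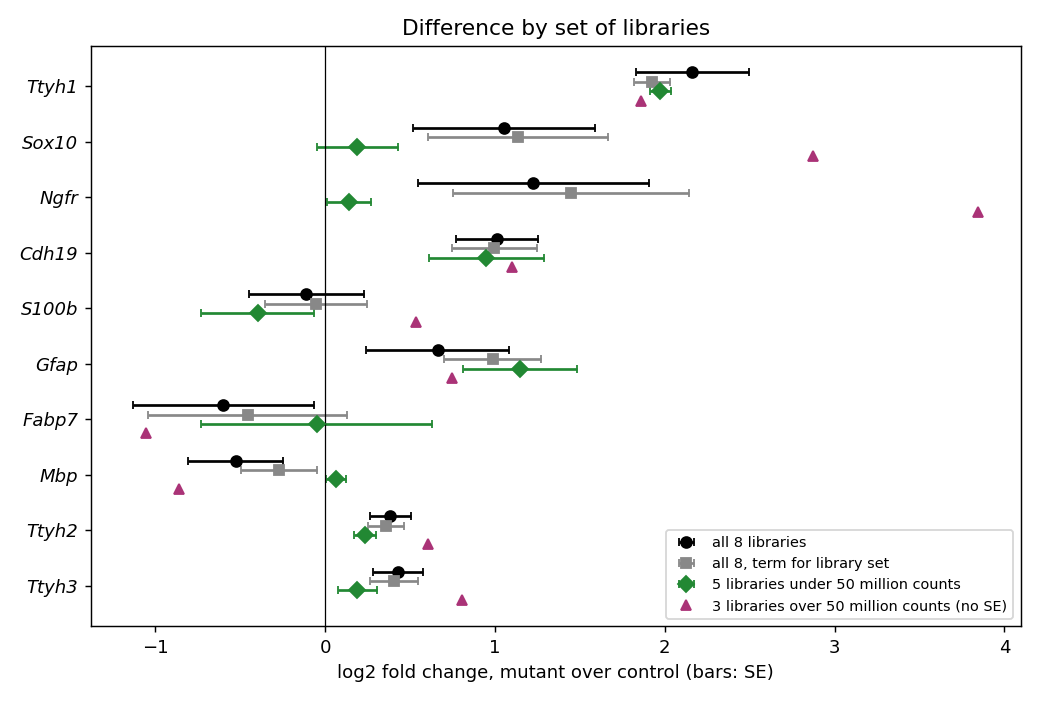
Log2 fold change (mutant over control) of the 8 genes and of *Ttyh2* and *Ttyh3*. Fits were over all 8 libraries, over all 8 with a term for library set and within the 5 smaller libraries, with bars for SE. The value within the 3 larger libraries, which hold 1 mutant, is a difference of mean log2 CPM without SE. The values for *Ttyh1* and *Cdh19* stay close together, whereas *Sox10* moves from 0.19 to 2.87 and *Ngfr* from 0.14 to 3.85 between the sets.

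*Gfap*, the glial intermediate filament, was low throughout. It was 0.441, 1.48, 1.05 and 0.668 CPM in controls 1 to 4. It was 0.995, 1.35, 2.07 and 1.38 CPM in mutants 1 to 4. The genotypes overlapped over all 8 libraries, but within each set every mutant was above every control. The larger set has a single mutant, and the counts were 17 to 140 a library. The share of all genes with this order was not counted. The log2 fold change was 0.66 (SE 0.42; adjusted p = 0.482, edgeR quasi-likelihood test), 1.15 (SE 0.33; adjusted p = 0.137) in the smaller libraries and 0.75 in the larger ones. *Gfap* lies at chr11:102887336-102897200 on the minus strand.

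*S100b*, a calcium binding protein of most Schwann cells, and *Fabp7*, a fatty acid binding protein of glial precursors, were also low throughout. *S100b* was 2.10, 1.80, 1.60 and 1.17 CPM in controls and 1.11, 1.15, 2.42 and 1.47 CPM in mutants. The genotypes overlapped widely, with mutant 3 the highest library, and the log2 fold change was -0.11 (SE 0.34; adjusted p = 0.899, edgeR quasi-likelihood test), 0.04 when scaled by library size alone. The span of *S100b* (chr10:76253836-76261319, plus strand) shares 1731 bases with that of *Dip2a* on the other strand, which held 12575 counts against 634. How reads there were assigned was not examined, so the value of *S100b* is uncertain. *Fabp7* (chr10:57784923-57788450, plus strand) was 1.27, 1.78, 0.931 and 0.262 CPM in controls and 0.475, 0.938, 0.591 and 0.806 CPM in mutants. Its mutants all lay inside the range of its controls, and the log2 fold change was -0.60 (SE 0.53; adjusted p = 0.602, same test). It was -0.05 (SE 0.68) in the smaller libraries and -1.05 in the larger ones, -0.23 without control 2 and -0.92 without control 4. The lowest of these values rests on 11 counts, with an exact Poisson interval from 0.131 to 0.469 CPM.

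*Mbp*, which encodes myelin basic protein and from an upstream promoter the Golli transcripts that many other cells make, stood far above the other markers. It was 135, 341, 227 and 143 CPM in controls 1 to 4. It was 142, 151, 150 and 144 CPM in mutants 1 to 4. Control 2 and control 3 were high, and the other 6 libraries lay together. The log2 fold change was -0.53 (SE 0.28; adjusted p = 0.424, edgeR quasi-likelihood test) over all libraries and 0.07 (SE 0.06) in the 5 smaller ones. Counts per gene do not separate the transcripts.

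Per length, the order of the mean levels in controls was *Mbp* (31.5 CPM per kb), *Ttyh1* (4.72), *Ngfr* (2.55), *Sox10* (2.05), *Cdh19* (1.61), *Fabp7* (1.40), *S100b* (1.01) and *Gfap* (0.224). In mutants *Mbp* (21.9 CPM per kb) and *Ttyh1* (21.1) came first, followed by *Ngfr* (5.96), *Sox10* (4.24), *Cdh19* (3.24), *S100b* (0.928), *Fabp7* (0.927) and *Gfap* (0.356). Neighbours in this order from *Ttyh1* down to *S100b* in controls lay within the larger of their SDs of each other. In mutants the same held for *Mbp* and *Ttyh1*, for *Ngfr*, *Sox10* and *Cdh19*, and for *S100b* and *Fabp7*.

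The 44 further Schwann cell genes were listed by role, also with earlier results of these data known, and 41 of them had enough counts. At an unadjusted p below 0.05, 7 were higher and 2 lower in mutants (22% of 41, against 13.3% of all genes), and none passed an adjusted p below 0.05 in the quasi-likelihood test. In the 5 smaller libraries 5 were higher and 1 lower (14.6% of 41, against 23.3% of all genes). Of the 7 higher over all 8 libraries, only *Egr2* was among them. Leaving out control 1 gave 12 higher, control 2 gave 2, mutant 1 gave 1 and mutant 4 gave 3. Over all genes and both directions, 2781, 1192, 1170 and 1140 passed in those fits, against 2025 with all 8 libraries. In DESeq2, 14 passed the unadjusted threshold, against 16.7% of all genes. The median log2 fold change was 0.31. In 3 of the 41 every mutant library was above every control library, and in 2 every mutant library was below. Of all genes tested, 4.4% and 3.8% had these orders. *Mag*, *Cldn19* and *Pmp2*, genes of myelin, were too low to test.

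**Figure D4:**
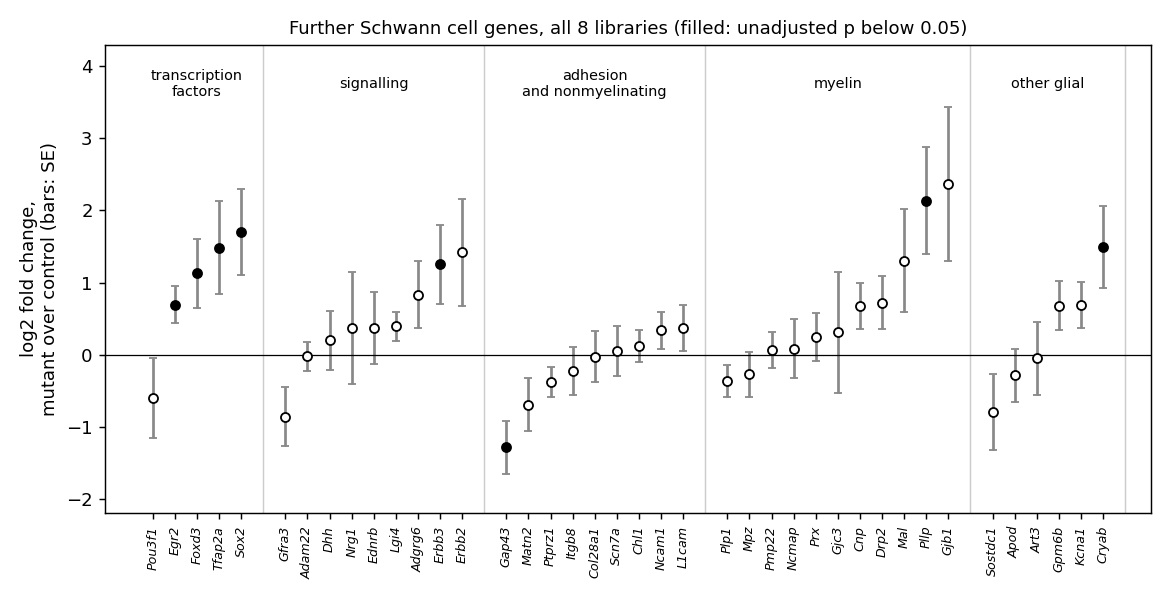
Log2 fold change (mutant over control, all 8 libraries, bars for SE) of 40 of the 41 further Schwann cell genes tested, grouped by role. Filled points are the 8 genes drawn with an unadjusted p below 0.05, a threshold that 13.3% of all genes tested passed. Of these 8, 4 are transcription factors, and none passed an adjusted p below 0.05.

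Over all 8 libraries the transcription factors had the highest median of the role groups, a log2 fold change of 1.13. Of these 5 factors, 4 were higher at an unadjusted p below 0.05, as were 6.4% of all genes tested. *Sox2*, the factor of immature and repair Schwann cells, was 0.727, 0.501, 0.228 and 0.429 CPM in controls and 0.995, 0.890, 3.46 and 0.735 CPM in mutants. The mutants all lay above the controls, narrowly but for mutant 3, and the log2 fold change was 1.70 (SE 0.60; adjusted p = 0.353, edgeR quasi-likelihood test). *Egr2*, which drives myelin genes, was 3.17, 2.39, 4.81 and 2.98 CPM in controls and 5.74, 5.22, 4.45 and 6.21 CPM in mutants (log2 fold change 0.69, SE 0.26). *Foxd3* and *Tfap2a*, factors of neural crest and Schwann cell precursors, had log2 fold changes of 1.13 and 1.49 and are named after their values were seen. In the 5 smaller libraries 1 of these 5 factors passed, *Egr2* (23.3% of all genes did), and the median was 0.49, just under the 0.52 of the other glial genes, against 2.34 in the 3 larger libraries. *Sox2* was 0.59 (SE 0.36) in the smaller libraries and 3.25 in the larger ones. *Foxd3* was 0.46 (SE 0.23) and 2.34, and *Tfap2a* 0.49 (SE 0.38) and 3.33, in the same order.

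The medians of the other groups were lower, and members passed in both directions. Of all genes tested, 6.4% passed as higher and 6.89% as lower. Of 9 signalling genes 1 was higher, *Erbb3* (named after its values were seen), the neuregulin receptor, with a log2 fold change of 1.25 (SE 0.55), and 0.99 (SE 0.57) in the smaller libraries, where it did not pass. Its level was highest in mutant 1 (36.0 CPM), mutant 4 (26.4 CPM) and control 1 (17.8 CPM). *Ednrb*, the endothelin receptor, was the highest of that group by mean and did not pass (117.5 ± 74.9 CPM in controls and 152 ± 21.0 CPM in mutants, SD, n = 4). Of 10 adhesion and nonmyelinating genes 2 were lower and none higher. *Gap43*, the growth cone protein that nonmyelinating Schwann cells also carry, was 3.45, 9.96, 11.5 and 5.10 CPM in controls and 2.94, 3.22, 3.28 and 2.87 CPM in mutants. All mutants lay below all controls, and the log2 fold change was -1.29 (SE 0.37; adjusted p = 0.353 in edgeR's quasi-likelihood test and 0.0435 in DESeq2). It was -0.51 (SE 0.22) in the 5 smaller libraries, where the unadjusted threshold was not passed, and -1.67 in the 3 larger ones. *Ncam1*, an adhesion gene of glia and endocrine cells, was 188 ± 59.3 and 237 ± 46.7 CPM.

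Of 11 myelin genes tested, 1 was higher (6.4% of all genes tested were), *Pllp*, which encodes plasmolipin. It was 0.415, 0.0557, 0.114 and 0.191 CPM in controls and 1.94, 0.433, 0.458 and 0.522 CPM in mutants (log2 fold change 2.13, SE 0.74, and 1.67, SE 0.84, in the smaller libraries, where it did not pass). Its mutants lay above its controls, with control 1 just under mutant 2 and mutant 1 far above the other mutants. These values rest on 190 counts over all libraries together. *Cnp*, the highest of that group, was 13.7 ± 5.94 CPM in controls and 21.9 ± 4.97 CPM in mutants and did not pass. Of 6 other glial genes *Cryab*, a small heat shock protein and the highest of them, was higher, at 15.8 ± 12.7 CPM in controls and 44.4 ± 19.9 CPM in mutants (log2 fold change 1.49, SE 0.57; adjusted p = 0.353, edgeR quasi-likelihood test). It was 0.58 (SE 0.46) in the 5 smaller libraries, where it did not pass, and 3.31 in the 3 larger ones.

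Markers of other cells moved beside these genes. The 11 fibroblast, stellate cell and pericyte markers summed to 336 to 501 CPM in controls and 779 to 913 CPM in mutants, with none at 0 in any library. Of these 11, 9 were higher at an unadjusted p below 0.05 over all 8 libraries, as were 6.4% of all genes tested. The count was 8 with a term for library set, where 1265 of 15233 genes were higher. It was 9 in the 5 smaller libraries, where 1920 of 15207 genes were higher. The 8 ductal markers summed to 788 to 1885 CPM in controls and 1331 to 3345 CPM in mutants, highest in mutant 1, and *Erbb3* and *Pllp* were also highest there. The 9 neuronal markers summed to 29.2 to 173 CPM in controls and 17.7 to 40.3 CPM in mutants, with *Chat* at 0 in at least 1 library. Of 7 tested, 3 were lower at an unadjusted p below 0.05 over all libraries, as were 6.89% of all genes tested. None of the 7 passed with a term for library set or in the 5 smaller libraries. The 10 endothelial markers summed to 830 to 913 and 753 to 940 CPM, and the 7 macrophage markers to 22.5 to 32.3 and 28.6 to 60.4 CPM. The β-cell markers (8 genes) summed to 119483 and 171983 CPM in controls 2 and 3 and to 31225 to 48766 CPM in the other 6 libraries. The α-cell markers (5 genes) summed to 19248 to 92784 CPM in controls and 10436 to 20121 CPM in mutants, and the δ-cell markers (3 genes) to 1653 to 5193 and 832 to 2256 CPM. The part of any of these in the values of *Ttyh1* and the glial markers was not tested.

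The genes most like *Ttyh1* in how single libraries departed from their genotype mean were no glial markers. Over 8 libraries, log2 deviations of *Kmt2c*, *Zfp644*, *Tnrc6b*, *Hist1h1d* and *Ptpn4* had the highest Pearson r of 15232 genes (0.995 to 0.997, Spearman rho 0.929 to 1.0, and r at least 0.981 without the 2 libraries farthest from the median). *Hist1h1d* had a log2 fold change of 0.80 and the other 4 lay between -0.10 and 0.07, so they share the library pattern of *Ttyh1* and not its genotype difference. For *Sox10*, 4 of the 5 leading genes were *Dapk2*, *Dip2a*, *Aebp1* and *Kdm2b* (r 0.986 to 0.995, rho 0.929 to 0.976, and r at least 0.934 without the 2 farthest), with log2 fold changes from 0.16 to 1.77. The libraries fall into 2 sets, so these values mostly describe the sets, and the relation within a set was not tested. By the same measure *Ngfr* ranked 1413 and *Ttyh1* 4304 among the genes compared with *Sox10*.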

How the data were processed

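RNA from islets was sequenced single-ended after ribosomal depletion, in 4 control and 4 mutant libraries. The authors trimmed reads with Trimmomatic and FASTP, aligned them to mm10 with STAR and deposited raw counts per gene from featureCounts at default parameters, with a gene length in kb. The submitters' processing notes also name edgeR. The labels and the methods name different RNeasy kits. A deposited table of the authors' own comparison (fold changes, mean log2 CPM, F, p, FDR, group means) was not used, nor were its 8 library columns. Symbols of 26 genes in the count table had been turned into dates and were left so.

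The *Itgb1* experiment's counts were fitted over 15233 of 24091 genes in R 4.3.3 with edgeR 4.0.16 (filterByExpr, TMM, quasi-likelihood test, genotype as the only term, Benjamini-Hochberg adjustment), and the code was tested on simulated data. DESeq2 1.42.0 and the likelihood ratio test, RLE factors, library size alone, other low count filters (none, or CPM of at least 1 in 4 libraries), the replicate number as a block, a term for library set (over 50 M counts or not), each set alone, and leaving out each library were alternatives. The interaction, the fit without controls 2 and 3, and values of further Schwann genes in the larger libraries were added after seeing the data. The study corrected a batch that it does not name in the text, and library set is not stated to be that batch. Total counts were 35.1 to 67.6 M a library, and every pair of libraries differed by a chi-square of at least 28.0 per gene, far above sampling noise. Same-numbered controls and mutants correlated in their deviations at 0.42, -0.01, 0.46 and 0.25. Controls 1, 3 and 4 correlated best with the mutant of their number, and control 2 with mutant 4 (0.18). What the numbers mark is not stated, so they entered as a block in an alternative and not in the main fit.

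The members and gene lists were chosen with earlier results of these data known. Genes named are the 8 members, the other tweety genes, the LRRC8 genes, of the further Schwann cell genes the 4 with the smallest p and the highest by mean CPM of each role, and the 5 most like *Ttyh1* and *Sox10*. Promoter sequences were those of RefSeq on GRCm38.p6; *Sox10*, *Cdh19* and *Mbp* promoters were not analysed here. Values for a few genes under this rule are not reported here.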

Additional observations from a re-analysis of the deposited data

Results flagged for a closer look

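In mutant 3, *Ttyh1* stood at 39.0 CPM, far below the other 3 mutants (79.9 to 83.5 CPM), and its gap to the nearest of them was 0.919 of the whole range of the group. *Ngfr* in the same library stood at 31.2 CPM, far above the other mutants (16.0 to 17.1 CPM), with a gap of 0.932 of the range. Both gaps exceed Dixon's 95% critical value for 4 samples. In all 16 groups were checked, 8 genes in each genotype, and chance alone gives such a gap in about 1 in 20 groups.

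The interaction of genotype and library set was 2.55 for *Sox10* and 3.59 for *Ngfr* on the log2 scale (edgeR quasi-likelihood test, added after the gap was seen, adjusted p = 0.0447 and 0.0132). The larger set has 1 mutant library, mutant 3, which the fit takes to vary like the others, so mutant 3 and its set cannot be told apart.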

How the results depend on the processing

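*Ttyh1* stayed higher in mutants in all 19 alternatives, with a log2 fold change from 1.77 (without controls 2 and 3, an alternative chosen after seeing the data) to 2.37 (without mutant 3), and from 1.98 to 2.37 when single libraries were left out. *Cdh19* kept its direction, with 0.86 to 1.23, and passed an adjusted p below 0.05 in DESeq2 alone. *Sox10*, *Ngfr* and *Gfap* kept a higher mean in mutants throughout, with log2 fold changes down to 0.19, 0.14 and 0.44. *Fabp7* kept a lower mean in mutants, from -1.05 to -0.05. *S100b* turned to 0.040 with library size alone, to 0.020 without control 1 and to 0.019 without mutant 1, its range over single libraries left out being -0.42 to 0.020, and it moved to 0.54 in the larger libraries. *Mbp* turned to 0.065 in the smaller libraries and to 0.080 without controls 2 and 3. Scaling by library size alone moved the median of all genes by 0.15.

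Genes called over the whole table were 0 in the quasi-likelihood test and 186 with DESeq2, 91 with the likelihood ratio test, 4 with the library set term and 10 in the smaller libraries. Genes at an unadjusted p below 0.05 were 2025, against 3632 in the smaller libraries, 1288 without controls 2 and 3, and 1140 to 2781 with single libraries left out, where leaving out control 2 gave 1192, mutant 1 gave 1170, mutant 2 gave 1315 and mutant 4 gave 1140. Of the further Schwann cell genes 9 passed that threshold, against 14 with DESeq2, 5 with CPM of 1 or more in 4 libraries, 6 in the smaller libraries, 3 without controls 2 and 3, and 4 to 15 with single libraries left out, where leaving out control 1 gave 15, control 2 gave 6, mutant 1 gave 4 and mutant 4 gave 5.

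With the replicate number as a block, *Ttyh1* had a log2 fold change of 2.17, no gene was called and 13 further Schwann cell genes passed the unadjusted threshold. Over all genes, 2687 passed it in that fit, against 2025 without the block. Of the 7 glial markers 2 passed, *Cdh19* and *Sox10*. *Sox10* had a log2 fold change of 1.36 there (SE 0.55, adjusted p = 0.281, edgeR quasi-likelihood test). The numbers are not stated to mark a shared animal or day. Controls 1, 3 and 4 correlated best with the mutant of their own number, and control 2 with mutant 4.

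The larger set has 1 mutant library, so its values have no replicate check. *S100b*, *Gfap* and *Fabp7* rest on 11 to 164 counts a library.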
